A study of Mus musculus with 44 samples.

Results

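The 6 TRAP-seq libraries of the left hippocampus, 3 from ELE mice and 3 from sedentary mice, were compared across all genes. These 6 were chosen as the separately isolated left hippocampi among the 20 TRAP libraries of a series of 44 samples. All mice were male Emx1-NuTRAP mice: an Emx1-IRES-Cre allele switches on the NuTRAP reporter, which labels the ribosomes and the nuclear envelope of cells that have expressed Emx1. The ELE mice (TG7.3.2, TG9.1.4 and TG9.2.2) had a running wheel in the cage from postnatal day 21 to day 41, and the sedentary mice (TG7.3.4, TG9.1.2 and TG9.2.4) had none. Mice were housed in pairs, so the distance run by a single mouse was not known, and 1 hippocampus of each mouse was taken for ribosome-bound RNA while the other went to isolation of nuclei. The right hippocampi, used here only for comparison, came from another 3 ELE and 3 sedentary mice, so that no left mouse was a right mouse.

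In translating ribosome affinity purification (TRAP), RNA is pulled down with tagged ribosomes, and what is counted is the ribosome-bound mRNA of the tagged cells plus some carry-over. Emx1 is a homeobox gene of the developing cortex and hippocampus. Its Cre allele recombines in the lineage of excitatory neurons and also reaches glia born from the same progenitors. Wheel running is known to raise neuronal activity in the hippocampus, where calcium entry induces immediate early transcription factors such as Fos and Egr family members within minutes, and these then drive effector genes such as Bdnf, Arc and Homer1. The hippocampus also carries a circadian clock. In that clock BMAL1 (Arntl) and CLOCK bind E-boxes and drive the Per, Cry, Nr1d and Dbp genes, the Nr1d repressors and the ROR activators compete for ROR elements in Arntl and Nfil3, and DBP and NFIL3 act with opposite sign at D-boxes.

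The 6 left libraries held between 53478046 and 63114459 counts, and mitochondrial genes took between 0.0704% and 0.122% of them. Within a group, libraries differed by 20.1 to 95.7 in chi-square per gene, far beyond counting error, so no library was a copy of another. Per kilobase of exon, Slc17a7, the vesicular glutamate transporter of forebrain excitatory neurons, averaged 671 CPM and Camk2a 572 CPM over the 6 libraries, against 4.92 CPM for Gad1 of inhibitory neurons and 0.138 CPM for Cx3cr1 of microglia. Markers of excitatory neurons were thus the highest of these, but Gfap of astrocytes averaged 493 CPM and Mbp of myelin 191 CPM per kilobase, so glial mRNA was also present. Emx1 itself was measured at 18.3 to 19.8 CPM in ELE and 17.8 to 21.3 CPM in sedentary libraries. The sum of 14 choroid plexus markers differed within both groups, from 83.6 to 1601 CPM in ELE and from 119.5 to 1926 CPM in sedentary libraries, which overlapped. In these bulk samples fewer cells of a type and less RNA per cell cannot be told apart.

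One ELE library, that of mouse TG9.1.4, stood apart from the other 5. Of the genes with at least 1 CPM in a library, 285 were more than 2 times as high in it as in the highest of the other libraries and 211 were less than 1/2 of the lowest, whereas no other library exceeded 64 and 105 genes. On the first principal component, which held 49.7% of the variance, it scored 45.4 and the others between -15.5 and -4.38. Npy, which encodes the inhibitory neuropeptide Y (chr6:49822710-49829507), was at 301 CPM in TG9.1.4 and between 0.774 and 3.30 CPM in the other 5 libraries. Hspb1, a small heat shock protein, was at 69.4 CPM against 0.123 to 1.873 CPM, Lif, a cytokine of the interleukin-6 family, at 58.0 against 1.61 to 2.68 CPM, and Ptx3, a secreted pentraxin of innate immunity, at 57.0 against 0.795 to 1.25 CPM. The sphingosine-1-phosphate receptor S1pr3 was at 175 against 6.35 to 10.2 CPM, the hyaluronan receptor Cd44 at 61.5 against 2.53 to 5.82 CPM, and Serpina3n, a serine protease inhibitor of reactive astrocytes, at 233 against 41.8 to 57.1 CPM. Gfap was at 3948 CPM in TG9.1.4 and between 1269 and 1973 CPM in the others. The other 11 astrocyte markers summed to 6155 CPM in TG9.1.4, within the 5565 to 7475 CPM of the other 5 libraries. On the low side Plk5, a polo-like kinase family gene, was at 2.97 against 21.6 to 32.9 CPM, and Scnn1a, an epithelial sodium channel subunit, at 5.10 against 18.3 to 20.9 CPM. These genes were picked after their values were seen, and they are given as a description.

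The same genes were high in 2 of the 6 right libraries, 1 from each group. Of 40 protein-coding genes that stood out most in TG9.1.4, sedentary mouse TG9.1.1 was among the highest 2 right libraries for 40 and ELE mouse TG9.2.1 for 32, and no other right library for more than 3. Npy was at 78.7 CPM in TG9.1.1 and 16.1 CPM in TG9.2.1, against 1.16 to 6.14 CPM in the other right libraries. Hspb1 was at 57.8 and 20.9 CPM against 0 to 0.812 CPM, and S1pr3 at 123 and 60.8 CPM against 6.13 to 9.36 CPM. Of the 30 genes lowest in TG9.1.4, TG9.1.1 was among the lowest 2 right libraries for 23 and TG9.2.1 for 27. The right libraries took no part in choosing these genes. The pattern was thus present in a mouse without a wheel, and on the left it lay in 1 of the 3 ELE mice. Each result below is given with TG9.1.4 and, where it matters, without it.

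**Figure D1:**
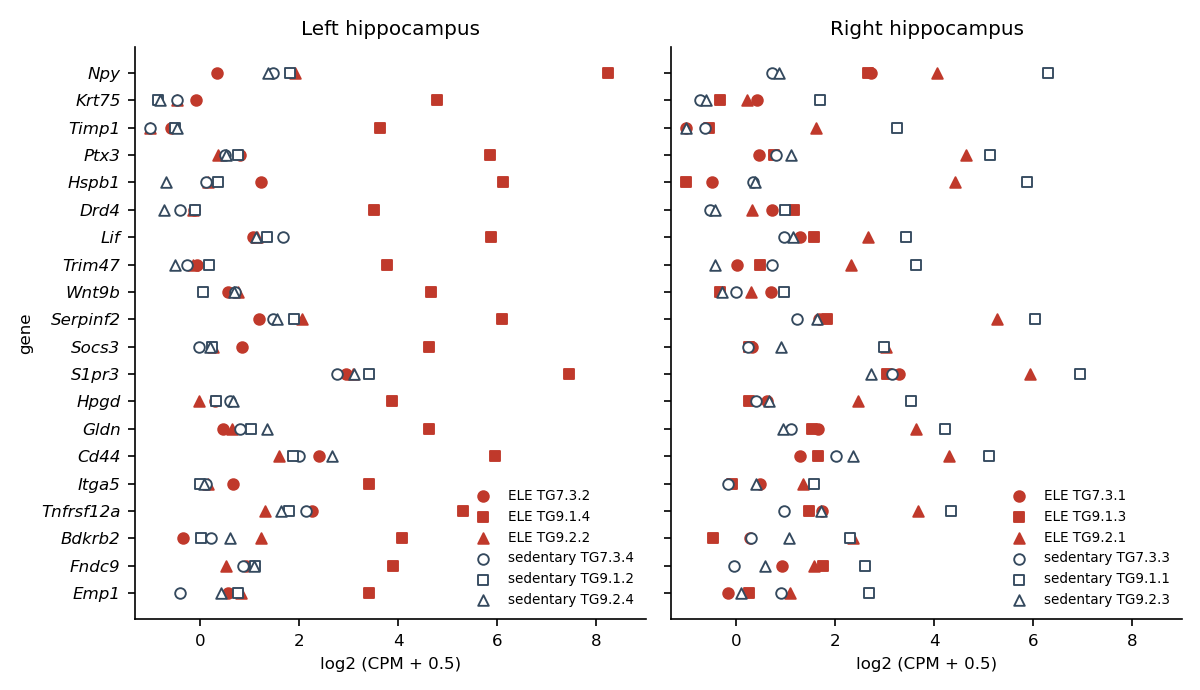
Levels of 20 genes that stood out in ELE library TG9.1.4, as log2 (CPM + 0.5), in the 6 left libraries and the 6 right libraries. Each point is 1 library, filled for ELE and open for sedentary; the square of TG9.1.4 lies alone on the left, with Npy at 301 CPM, and the open square of sedentary TG9.1.1 and the filled triangle of ELE TG9.2.1 are the highest for most genes on the right.

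With all 6 libraries, 196 genes were called higher in ELE (1.10% of the 17750 tested) and 171 lower (0.963%), meaning an edgeR p below 0.05 before adjustment and a change of more than 1.31-fold either way. After Benjamini-Hochberg adjustment edgeR left 0 genes below 0.05. The adjusted p was 0.96 or more for every gene, and 699 genes were below 0.05 before adjustment, fewer than the 888 expected if none differed. DESeq2, run on 27142 genes, gave 0 after adjustment, with a lowest adjusted p of 0.0715, and 808 before it. All 3 ELE libraries lay above all 3 sedentary ones for 5.18% of genes and below them for 5.59%. Exact permutation tests of single genes cannot go below p = 0.1 with 3 against 3 mice. Below, called means past both limits before adjustment, so each named gene is a candidate and not a gene that passed a test corrected for all genes. Without TG9.1.4, 216 genes were called higher (1.18% of 18319) and 321 lower (1.75%). In that edgeR fit 1017 genes were below 0.05 before adjustment, against 916 expected if none differed, and 0 after it. Of the original calls, 75 of 196 higher and 96 of 171 lower genes were called again in the same direction. Of the 285 genes that were highest by more than 2 times in TG9.1.4, 52 were among the higher calls.

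Clock genes were called in both arms of the oscillator, in opposite directions. Of the 7 genes listed for the ROR-element arm, Arntl and Nfil3 rose, and of the 12 genes listed for the E-box and D-box arm, Dbp, Per3 and Ciart fell, beside 1.10% of all genes called higher and 0.963% called lower. The median log2 fold change was 0.13 in the first arm and -0.24 in the second, beside 0.00 over all genes. Without TG9.1.4 the medians were 0.09 and -0.21, with 2 members called higher in the first arm and 4 called lower in the second, beside 1.18% and 1.75% of all genes. The study's methods do not give the hour at which tissue was taken. The part of collection hour in these differences was not tested.

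Arntl, whose product BMAL1 is the activator at the centre of the clock (gene body at chr7:113207465-113314126 of GRCm38.p6, as for the positions below), was at 42.5, 46.01 and 45.4 CPM in ELE mice TG7.3.2, TG9.1.4 and TG9.2.2. In sedentary mice TG7.3.4, TG9.1.2 and TG9.2.4 it was at 30.8, 33.7 and 31.5 CPM. The groups did not overlap, with means of 44.6 ± 1.85 and 32.0 ± 1.51 CPM (SD, n = 3 each) and a log2 fold change of 0.48 (SE 0.08). Nfil3, the repressor at D-boxes (chr13:52967209-52981073), was at 16.2, 21.9 and 19.2 CPM in ELE and 11.2, 12.4 and 12.5 CPM in sedentary mice. It rose by 0.66 on the log2 scale (SE 0.14), again without overlap. Both genes were called in each of the 6 fits that left out 1 library.

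The promoters of these genes, from 250 bases before to 50 bases after the start, are shown for the 4 called clock genes whose window holds the motif of their arm. They are RefSeq sequences of GRCm38.p6, written in the direction of the gene, with the motif in capitals. For Arntl and Nfil3 the motif is the ROR element TAGGTCA, searched on both strands. It begins 30 bases after the second annotated Arntl start (chr7:113207261-113207560, plus strand) and 12 bases before the Nfil3 start (chr13:52980990-52981289, minus strand, where it reads as the reverse complement).
Arntl: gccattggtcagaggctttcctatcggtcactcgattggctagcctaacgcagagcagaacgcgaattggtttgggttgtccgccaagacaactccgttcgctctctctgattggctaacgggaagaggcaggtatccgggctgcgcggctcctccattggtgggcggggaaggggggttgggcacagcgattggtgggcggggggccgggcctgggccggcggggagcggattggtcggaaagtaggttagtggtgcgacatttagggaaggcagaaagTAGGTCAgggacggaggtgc
Nfil3: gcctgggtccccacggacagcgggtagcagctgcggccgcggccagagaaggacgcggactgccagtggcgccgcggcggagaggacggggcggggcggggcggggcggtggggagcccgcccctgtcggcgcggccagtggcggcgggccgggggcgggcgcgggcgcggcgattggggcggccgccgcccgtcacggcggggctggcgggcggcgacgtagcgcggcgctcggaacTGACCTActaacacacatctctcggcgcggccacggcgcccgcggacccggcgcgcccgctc
For Ciart the capitals mark 3 E-boxes, CACGTG, beginning 116, 58 and 44 bases before the start (chr3:95882179-95882478, minus strand). For Per3 they mark 2 D-boxes, TTATGTAA, beginning 205 and 158 bases before the start (chr4:151044616-151044915, minus strand).
Ciart: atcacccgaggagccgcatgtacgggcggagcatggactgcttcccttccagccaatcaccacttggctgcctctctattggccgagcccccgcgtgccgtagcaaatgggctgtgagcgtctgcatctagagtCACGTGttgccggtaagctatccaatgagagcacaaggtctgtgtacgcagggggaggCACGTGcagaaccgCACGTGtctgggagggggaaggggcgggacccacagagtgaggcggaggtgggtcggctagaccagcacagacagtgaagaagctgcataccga
Per3: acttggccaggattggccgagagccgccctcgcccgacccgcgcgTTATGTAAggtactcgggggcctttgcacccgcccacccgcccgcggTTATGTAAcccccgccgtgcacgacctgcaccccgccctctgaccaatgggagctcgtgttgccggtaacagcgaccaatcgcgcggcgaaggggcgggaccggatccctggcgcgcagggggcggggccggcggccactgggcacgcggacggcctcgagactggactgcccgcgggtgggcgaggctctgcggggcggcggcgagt
Of the 27025 genes with a RefSeq window, 2.97% held TAGGTCA, 8.09% CACGTG and 1.11% TTATGTAA, and no matches overlapped in the windows shown. Among 7 windowed genes of the ROR-element arm, Arntl and Nfil3 were the 2 with TAGGTCA, and Cry1 held CACGTG instead, 60 bases before its start. Among 10 windowed genes of the other arm 4 held CACGTG and 1 held TTATGTAA. The Dbp window held none of the 3. A match is a run of letters and not a shown site.

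Dbp, the D-box activator and a direct output of BMAL1 (chr7:45705088-45710203), was at 28.1, 12.7 and 31.4 CPM in ELE and 52.2, 56.2 and 55.9 CPM in sedentary mice. It fell by 1.19 on the log2 scale (SE 0.28), from 54.8 ± 2.26 to 24.1 ± 10.0 CPM. Without TG9.1.4, the lowest of the 3, the log2 fold change was -0.88 and the edgeR adjusted p was 0.0699, the smallest of all genes in that fit. Per3, a period gene of the repressor limb (chr4:151003652-151044665), was at 21.8, 7.81 and 21.8 CPM against 32.9, 30.2 and 28.8 CPM, a log2 fold change of -0.84 (SE 0.33). Ciart, a repressor of CLOCK and BMAL1 (chr3:95878503-95882251), was at 4.30, 2.43 and 2.51 CPM against 4.74, 6.01 and 4.93 CPM, a log2 fold change of -0.76 (SE 0.26). In all 3 genes the ELE mice lay below the sedentary mice, and each was called without TG9.1.4, at -0.49 for Per3 and -0.61 for Ciart. Per3 missed the threshold without any 1 of the sedentary libraries TG7.3.4, TG9.1.2 and TG9.2.4 (log2 fold changes of -0.78, -0.85 and -0.88), and Ciart without TG9.1.2 (-0.65) or TG9.2.2 (-0.63). Per3 also missed it with DESeq2 and with all 12 libraries in the fit.

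The other clock genes were not called by edgeR with all 6 left libraries, and several differed mainly in 1 library. Nr1d2, encoding the repressor REV-ERB beta, was at 70.9, 28.5 and 60.7 CPM against 78.3, 71.6 and 81.6 CPM and missed the threshold (log2 fold change -0.53, SE 0.28). Tef, a D-box activator, was at 420, 301 and 424 CPM against 454, 441 and 443 CPM. Both had no overlap, and with Dbp, Per3 and Ciart this made 5 of 12 genes with all ELE libraries below, beside 5.59% of all genes. Bhlhe40, a repressor at E-boxes, was the exception in the other direction, at 101, 109 and 100 CPM against 83.2, 92.3 and 87.2 CPM (log2 fold change 0.24, SE 0.08), which was under the fold limit. Of the genes not called, Cry1, Clock, Per2, Bhlhe40 and Bhlhe41 were highest in TG9.1.4. In that library Hlf, Rora, Rorb, Nr1d1, Nr1d2, Tef, Per1 and Cry2 were lowest, and Npas2 was neither. Cry1, a repressor of CLOCK and BMAL1, was at 33.3 CPM there and at 13.0 to 16.2 CPM in the others, and passed both limits with DESeq2 (log2 fold change 0.59) and with no filter on low counts. Nr1d2 passed both with no filter and with the replicate block (-0.63). Hlf, a D-box activator, was at 65.0 CPM in TG9.1.4 against 132 to 164 CPM. Nr1d1, encoding REV-ERB alpha, was at 83.1, 63.5 and 69.3 CPM against 75.9, 92.8 and 90.6 CPM (log2 fold change -0.26, SE 0.12). Clock, Npas2, Per1 and Cry2 had log2 fold changes between -0.10 and 0.13. Per2 was at 13.6, 23.4 and 12.02 CPM against 19.5, 19.0 and 13.2 CPM, and was called lower without TG9.1.4 (log2 fold change -0.43).

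**Figure D2:**
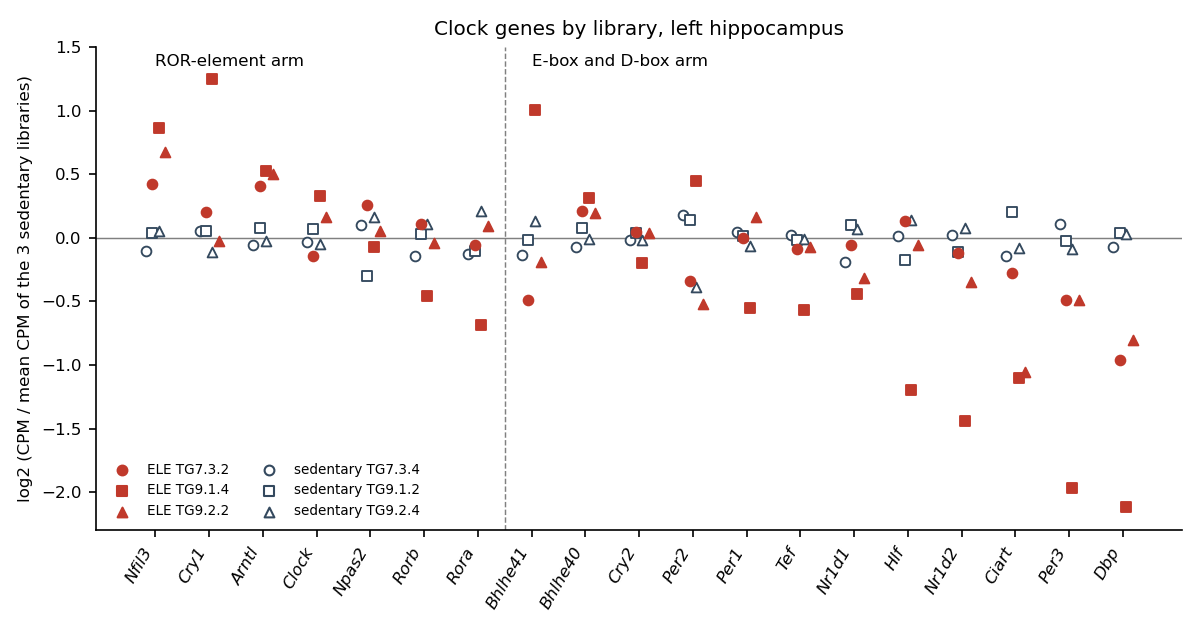
Level of each clock gene in each left library, as log2 of its CPM over the mean CPM of the 3 sedentary libraries; filled symbols are ELE, open symbols sedentary, and the shape gives the first part of the mouse number. The 3 ELE symbols lie above the sedentary ones for Arntl and Nfil3 and below them for Ciart, Per3 and Dbp, with the square of TG9.1.4 lowest for Per3 and Dbp.

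The right hippocampus gave the same directions for the 5 called clock genes in other mice. There Arntl had a log2 fold change of 0.52 (SE 0.10), Nfil3 0.42, Dbp -0.70, Ciart -0.78 and Per3 -0.75. Arntl, Nfil3, Dbp and Ciart were called on that side and Per3 was not. None of the 5 had an interaction of exercise with hemisphere below 0.05 before adjustment. Arntl was at 44.3 to 47.2 CPM in the right ELE mice and 29.1 to 33.9 CPM in the right sedentary mice, which includes TG9.1.1 at 33.9. Dbp and Per3 were lower in TG9.1.1, at 31.1 and 10.4 CPM, than in the other right sedentary mice, at 49.8 and 51.4 CPM and at 33.7 and 30.1 CPM. In ELE mouse TG9.2.1, which also had the pattern that marked TG9.1.4, they were at 26.6 and 12.7 CPM, against 23.0 and 31.8 CPM and 17.8 and 13.5 CPM in the other right ELE mice. The part of that pattern in the left difference of Dbp and Per3 was not tested. Bhlhe40 had a log2 fold change of -0.02 on the right, and its interaction was below 0.05 before adjustment.

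Beyond the clock, the rule for named genes took the 12 higher genes with the smallest p-values. Each of the 12, Arntl and Nfil3 included, was protein-coding, had at least 1 CPM on average in a group, and had no overlap between groups. Hcn4, a pacemaker channel opened by hyperpolarization (chr9:58823412-58863175), was at 4.38, 5.15 and 2.703 CPM in ELE and 1.12, 2.25 and 1.0 CPM in sedentary mice (log2 fold change 1.49, SE 0.38). Kcnh5, a voltage-gated potassium channel of the ether-a-go-go family (chr12:74897220-75177332), was at 3.05, 2.91 and 5.27 CPM against 1.60, 1.91 and 1.74 CPM (log2 fold change 1.10, SE 0.29). Both stayed called without TG9.1.4. On the right Hcn4 was at 6.55 CPM in TG9.2.1 and 6.06 CPM in TG9.1.1, against 2.15 to 2.81 CPM in the others. TG9.2.1 and TG9.1.1 also had the pattern that marked TG9.1.4. Its part in the left difference of Hcn4 was not tested. Mchr1, the receptor for melanin-concentrating hormone (chr15:81235499-81238964), was better expressed, at 29.6, 38.2 and 34.2 CPM against 24.9, 23.8 and 25.9 CPM (log2 fold change 0.45, SE 0.11).

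Il1r1, the signalling receptor for interleukin-1 (chr1:40225080-40317257), was at 10.9, 27.7 and 11.4 CPM in ELE and 7.56, 6.19 and 5.68 CPM in sedentary mice. It rose by 1.36 on the log2 scale (SE 0.35), and by 0.78 without TG9.1.4. On the right it was at 15.6 CPM in TG9.2.1 and 18.0 CPM in TG9.1.1, against 8.12 to 12.5 CPM in the others. Igsf10, an immunoglobulin superfamily gene (chr3:59316735-59344394), was at 2.03, 3.99 and 2.77 CPM against 1.05, 1.31 and 1.25 CPM. On the right Igsf10 was at 2.97 CPM in TG9.2.1 and 4.44 CPM in TG9.1.1, against 1.10 to 2.72 CPM in the others. The part of the pattern of TG9.1.4 in the left differences of Il1r1 and Igsf10 was not tested. The summed meningeal and fibroblast markers overlapped between groups (58.7 to 97.7 CPM in ELE, 64.7 to 78.4 CPM in sedentary), and their part in the difference of Igsf10 was not tested. Mfsd2a, which carries lysolipids with docosahexaenoic acid into the brain, was at 18.8, 18.6 and 16.7 CPM against 12.8, 12.8 and 15.3 CPM, with a log2 fold change of 0.40 that sits just inside the limit. Tert, the catalytic subunit of telomerase, and Spa17, a sperm protein gene, rose by 1.80 and 0.78 on the log2 scale at levels of no more than 3.62 CPM. Atf3, a stress-induced transcription factor, was at 1.27, 4.16 and 0.495 CPM against 0.333, 0.374 and 0.316 CPM. Krt75, a keratin, met the rule through TG9.1.4 alone, at 26.9 CPM against 0.449 CPM or less in the other 5 libraries. Without that library Mchr1 (0.36), Mfsd2a (0.38) and Krt75 (1.503) were not called, and the other 9 of the 12 were. Mfsd2a was also lost without TG7.3.2 (0.37), TG7.3.4 (0.36) or TG9.1.2 (0.36).

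The 12 lower genes, Dbp among them, were all called again without TG9.1.4. Paqr6, a membrane receptor of the progestin and adipoQ family (chr3:88364584-88368541), had the smallest edgeR p of the 24 genes. It was at 12.6, 12.7 and 14.8 CPM in ELE and 20.6, 22.3 and 20.7 CPM in sedentary mice, and fell by 0.67 on the log2 scale (SE 0.11). Tmem114, a transmembrane protein gene (chr16:8409275-8425136), was at 7.03, 4.32 and 6.29 CPM against 10.8, 10.3 and 12.4 CPM (log2 fold change -0.93, SE 0.20). Prkd1, a protein kinase of the diacylglycerol pathway, was at 10.3, 10.8 and 12.5 CPM against 15.7, 14.9 and 15.1 CPM. 2410015M20Rik, a subunit of the complex that shapes mitochondrial cristae, was at 19.0, 21.7 and 22.7 CPM against 28.4, 25.0 and 30.8 CPM, and was not called without TG7.3.2 (-0.34) or TG9.2.4 (-0.34). The groups of these 4 genes did not overlap.

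Slc16a12, a transporter of the monocarboxylate family (chr19:34668403-34747289), had the largest fall of the 12, at 0.186, 0.114 and 0.230 CPM against 1.37, 1.197 and 0.474 CPM (log2 fold change -2.50, SE 0.58). In the same order of libraries the choroid plexus markers summed to 1601, 83.6 and 158 CPM in ELE and 1589, 1926 and 119.5 CPM in sedentary mice. The highest 2 values of Slc16a12 were thus in libraries rich in these markers, as was the low value of TG7.3.2. The part of the markers in its difference was not tested. Cfap65, a cilia and flagella protein, was at 0.618 to 0.712 CPM in ELE and 1.19 to 1.91 CPM in sedentary mice, and Ush1g, a scaffold of inner-ear hair cells, at 0.279 to 0.608 against 0.947 to 1.83 CPM. The homeobox gene Prox2 fell by 1.32, Fam69c by 0.80, the rhomboid family gene Rhbdl1 by 0.54 and Gm1673 by 0.47 on the log2 scale.

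On the right 4 of these 24 genes were called. Of the 12 higher genes 8 had the same sign there and 2 (Arntl and Nfil3) were called, beside 0.746% of 17570 genes called higher on that side. Of the 12 lower genes 10 had the same sign and 2 (Dbp and Slc16a12) were called, beside 1.23% called lower. Slc16a12 had a log2 fold change of -3.00 (SE 1.16) there, from 1.73 CPM in sedentary mouse TG9.2.3 and 0 to 0.324 CPM in the other 5. In TG9.2.3 the choroid plexus markers summed to 1779 CPM, against 68.4 to 168 CPM in the other 5, and 7 of the 12 tested on the right were called lower. The interaction had a p below 0.05 before adjustment for 7 of the 12 higher and 3 of the 12 lower genes, beside 2.60% of 18810 genes, but the 24 were selected for a large left difference, which by itself widens the gap to the right. The smallest was that of Spa17, at 0.78 on the left and -0.66 on the right. Over all calls, 88 of the 185 higher genes that could be tested on the right had the same sign (47.6%) and 113 of 164 lower genes (68.9%), beside 55.8% of the 17158 genes tested on both sides. In the direct test of the difference, edgeR left 0 genes below 0.05 after adjustment and 490 before it, and DESeq2 gave 2 and 676.

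**Figure D3:**
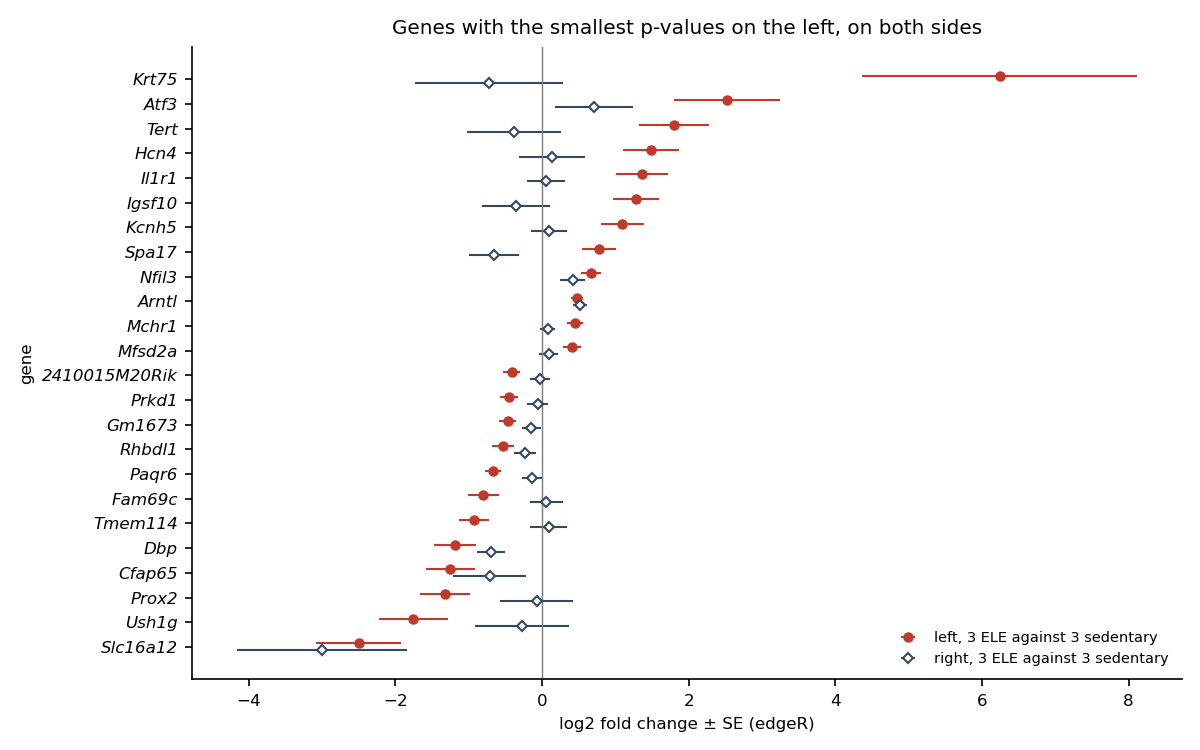
Log2 fold change with its SE of the 24 genes named for the left hippocampus, in the left (filled circles) and in the right libraries (open diamonds), each 3 ELE against 3 sedentary mice. Arntl, Nfil3, Dbp and Slc16a12 lie on the same side of 0 in both, at 0.48 and 0.52 for Arntl, while genes such as Kcnh5 (1.10 and 0.09) and Tmem114 (-0.93 and 0.09) were near 0 on the right.

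Activity-regulated genes were higher mainly in 1 mouse. Of 20 immediate early transcription factors 4 were called higher (Fos, Atf3, Maff and Egr3), and of 20 activity-induced effectors 3 (Sik1, Inhba and Gadd45g), with no member of either list called lower, beside 1.10% of all genes called higher. The medians over the lists were 0.32 and 0.32, and 0.13 and 0.07 without TG9.1.4, when 1 member of each list was called, beside 1.18% of all genes called higher. Fos, the component of AP-1 most used as an activity marker, was at 11.7, 34.9 and 6.89 CPM in ELE and 5.02, 7.296 and 9.35 CPM in sedentary mice. Its log2 fold change was 1.30 (SE 0.54), and 0.36 without TG9.1.4. Egr3 was at 165, 364 and 187 CPM against 151, 168 and 152 CPM, and its log2 fold change of 0.61 became 0.17 without that library. Arc, which organises the actin and endosomes of active spines, was at 86.4, 201 and 89.7 CPM against 66.6, 95.6 and 95.04 CPM, and did not pass. With TG9.1.4 set aside the groups overlapped for all 3 genes. Fos was also lost without TG7.3.4 (1.09) or TG9.1.2 (1.31), and Egr3 without TG7.3.4 (0.58), TG9.1.2 (0.66) or TG9.2.4 (0.58). Maff (2.53), Inhba (1.93) and Gadd45g (0.93) were lost without TG9.1.4, at 0.02, 0.31 and 0.26, and also without TG7.3.4, TG9.1.2 or TG9.2.4, at 0.85 to 3.06.

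Bdnf, the neurotrophin most often tied to exercise, was at 63.5, 116 and 78.9 CPM in ELE and 69.9, 71.4 and 64.9 CPM in sedentary mice (log2 fold change 0.33, SE 0.19), and at 0.05 without TG9.1.4. Npas4 and Nr4a1 had log2 fold changes of 0.08 and 0.03. For Sik1 and Egr1 the difference did not rest on that mouse alone. Sik1, a kinase that restrains CREB coactivators, was at 12.6, 10.9 and 6.77 CPM against 4.54, 6.77 and 6.46 CPM (log2 fold change 0.77, SE 0.26) and was 0.71 without it, but it was lost without TG7.3.2 (0.57) or TG7.3.4 (0.61). Egr1 was at 215, 193 and 169 CPM against 149, 182 and 150 CPM, a log2 fold change of 0.26 that is under the fold limit and stayed at 0.26 without TG9.1.4. Homer1, Scg2, Rgs2 and Rheb had all ELE libraries above all sedentary ones, as did Gadd45g, which makes 5 of 20 effectors, beside 5.18% of all genes. Of the 20 immediate early factors 1 did. The log2 fold changes of these effectors other than Gadd45g (0.93) were 0.17 to 0.35, below the limit. That of Gadd45g was 0.26 without TG9.1.4. On the right 6 of the 20 immediate early factors and 1 of the effectors were called higher, beside 0.746% of all genes, with medians of 0.35 and 0.25.

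Neuropeptide genes followed the same pattern more sharply. Of 20 neuropeptide and granin genes 2 were called higher, Npy and Pdyn, beside 1.10% of all genes. The list's median fell from 0.34 to 0.02 without TG9.1.4, when none was called. Pdyn, the dynorphin precursor of granule cells, was at 10.8, 23.3 and 10.0 CPM against 9.65, 7.75 and 8.33 CPM, without overlap (log2 fold change 0.78, SE 0.31), and 0.28 without TG9.1.4. Both were also lost without TG7.3.4, TG9.1.2 or TG9.2.4, at 5.25 to 5.53 for Npy and 0.71 to 0.87 for Pdyn. Penk was at 27.4, 162 and 36.3 CPM against 35.4, 40.4 and 44.8 CPM, Chga at 107, 328 and 96.3 CPM against 96.8, 111 and 103 CPM, and Nptx2, a synaptic pentraxin, at 79.2, 319 and 88.5 CPM against 93.7, 98.6 and 76.4 CPM. In each of these 3 the other ELE mice lay among or below the sedentary mice. Npy is also a marker of interneurons. The sum of the 14 interneuron markers was 561 CPM in TG9.1.4 and 253 to 306 CPM elsewhere. Without Npy the sum was 260.0 CPM there and 249 to 303 CPM elsewhere. Gad1 was at 46.4 CPM there and 31.7 to 43.6 CPM in the others. Among 9 neurotrophins and receptors only Ntf5 (neurotrophin-4) was called, beside 1.10% of all genes called higher. It was at 1.16, 3.02 and 0.795 CPM against 0.210, 0.748 and 0.140 CPM (log2 fold change 2.18, SE 0.74). Ntf5 was lost without TG9.1.4 (1.42), TG7.3.4 (1.90) or TG9.2.4 (1.79).

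**Figure D4:**
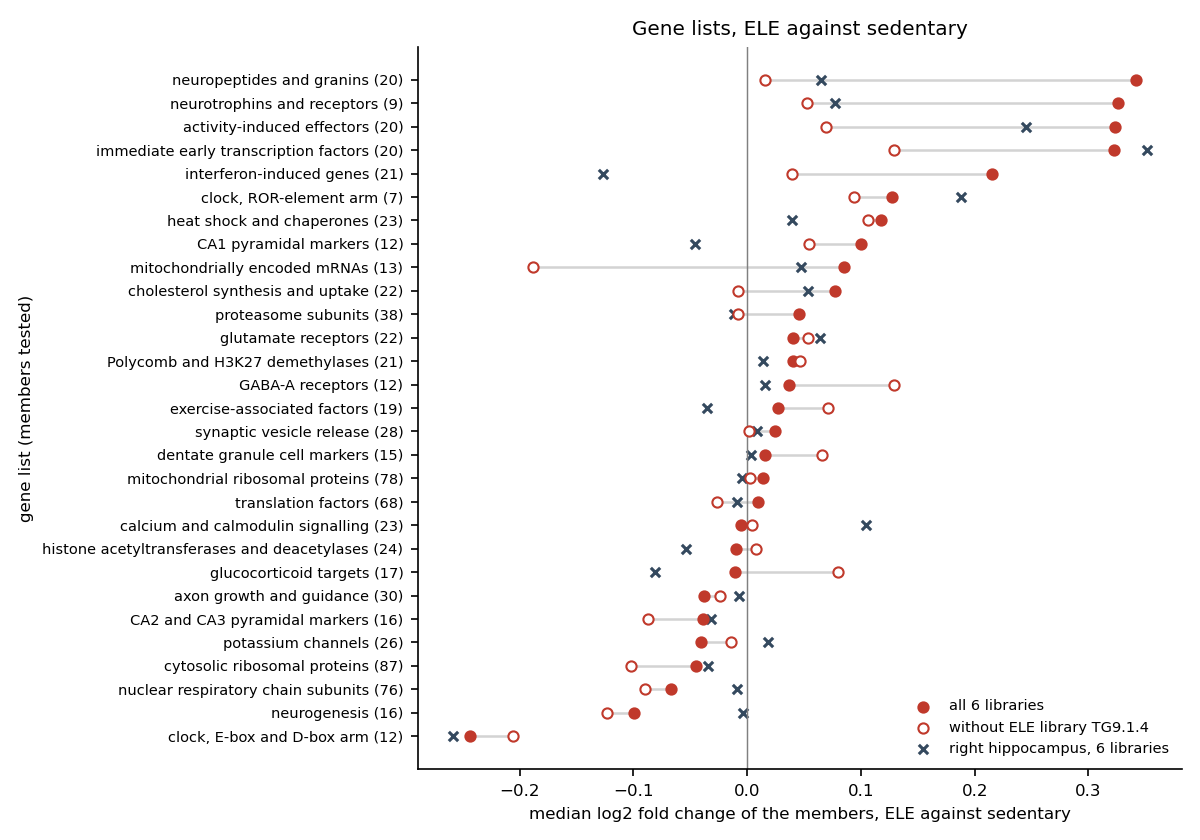
Median log2 fold change of the tested members of each gene list, ELE against sedentary, with all 6 left libraries (filled), without ELE library TG9.1.4 (open) and in the 6 right libraries (crosses). The medians of the neuropeptide, neurotrophin and both activity lists move from 0.32 to 0.34 down to 0.02 to 0.13 without that library, whereas the 2 clock lists and the heat shock list stay near their values.

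The summed level of chaperones was slightly higher in all 3 ELE mice. The 23 chaperone genes summed to 6222, 6348 and 6190 CPM in ELE and 5783, 5956 and 5768 CPM in sedentary mice, and 18 of the 23 had a positive log2 fold change. The median was 0.12, and 0.11 without TG9.1.4. Hsp90aa1, the inducible cytosolic HSP90, was at 926, 963 and 959 CPM against 827, 846 and 881 CPM (log2 fold change 0.16, SE 0.06), and Hsph1, a nucleotide exchange factor of HSP70, at 296, 391 and 301 CPM against 239, 292 and 270 CPM (0.30, SE 0.12). With Dnaja1 and Bag3 they made 4 of 23 genes without overlap on the higher side, beside 5.18% of all genes. Only Hspb1 (5.58) and Bag3 (0.86) were called, beside 1.10% of all genes called higher, and neither without TG9.1.4 (1.31 and 0.28). Bag3 was also lost without TG7.3.4, TG9.1.2 or TG9.2.4, at 0.81 to 0.91. The stress-inducible Hspa1a and Hspa1b each had a log2 fold change of -0.07. On the right the median was 0.04 with no member called.

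Most nuclear genes of the respiratory chain had a small negative log2 fold change. Of 76 subunits 61 had a negative log2 fold change and the median was -0.07, with a lowest value of -0.34, so that none reached the fold limit and 0 were called. All 3 ELE libraries lay below all sedentary ones for 21 of the 76 (27.6%, beside 5.59% of all genes) and above them for 3. Below 0.05 before adjustment and with any fold, 9 were lower (11.8%, beside 1.95% of all genes) and none higher. Ndufa4, a subunit tied to cytochrome c oxidase, was at 140, 150 and 139 CPM in ELE and 170, 164 and 173 CPM in sedentary mice (log2 fold change -0.24, SE 0.07). Atp5e, the epsilon subunit of ATP synthase, was at 56.1, 68.3 and 54.1 CPM against 73.9, 70.5 and 82.0 CPM (-0.34, SE 0.11). The most abundant subunits, Atp5b and Atp5a1, had log2 fold changes of 0.01 and -0.03. The summed levels were 10280, 10660 and 10410 CPM against 10960, 10670 and 11010 CPM, so the groups nearly met at TG9.1.4 and TG9.1.2. Members of 1 list in the same libraries are not independent of each other. On the right the median was -0.01 and none was lower at that limit.

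Of 87 cytosolic ribosomal protein genes 55 had a negative log2 fold change, with a median of -0.05, none called, 2 lower below 0.05 before adjustment, and sums that overlapped between groups (9903 to 11170 CPM in ELE, 9893 to 11370 CPM in sedentary). Without TG9.1.4 their median was -0.10, with 15 lower below 0.05 and 2 called, and that of the respiratory chain was -0.09, with 16 lower below 0.05 and 1 called. In that fit 3.30% of all genes were lower below 0.05 and 1.75% were called lower. The 13 mRNAs of the mitochondrial genome had a median of 0.09 with TG9.1.4 and -0.19 without it. The 78 mitochondrial ribosomal proteins, the 38 proteasome subunits and the 68 genes matched as translation factors had medians of 0.01, 0.05 and 0.01. The 1 call among them, beside 0.963% of all genes called lower, was Eef1akmt4, which encodes a methyltransferase of the elongation factor and not a translation factor (log2 fold change -0.81), and it was lost without TG7.3.2, TG9.1.2, TG9.2.2 or TG9.2.4, at -0.79 to -0.72.

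**Figure D5:**
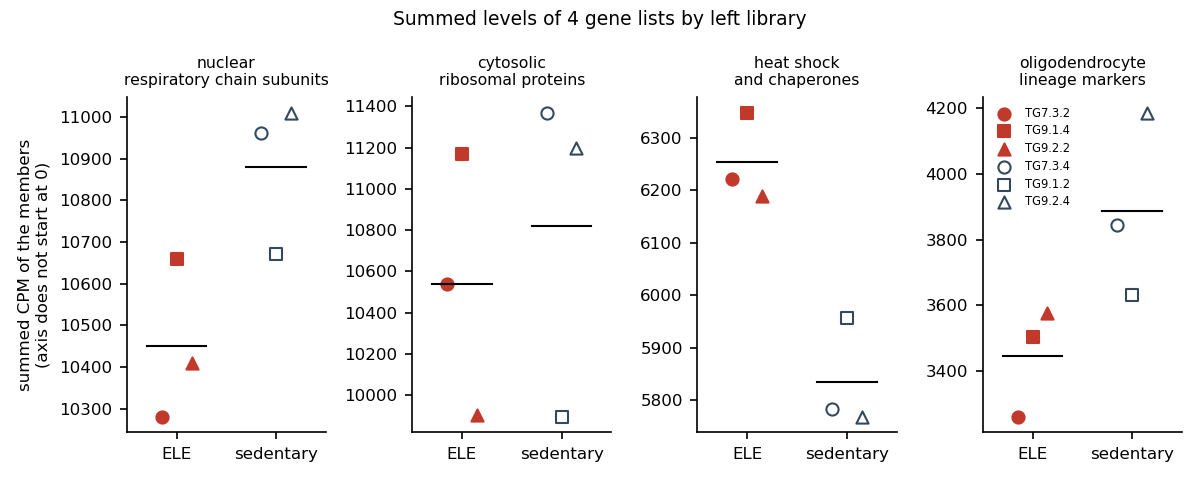
Summed CPM of the members of 4 gene lists in each left library, with a line at the group mean; the axes do not start at 0. The 3 ELE libraries lie below the sedentary ones for respiratory chain subunits and oligodendrocyte markers, above them for chaperones, and overlap them for ribosomal proteins.

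No member was called among 22 glutamate receptor, 12 GABA-A receptor, 28 vesicle release and 23 calcium and calmodulin genes, and their medians lay between -0.01 and 0.04. Without TG9.1.4 Unc13c, a vesicle priming gene, was called higher (1.04), beside 1.18% of all genes. Gria1, an AMPA receptor subunit, was at 922 to 1122 CPM in ELE and 949 to 1085 CPM in sedentary mice, and Grin2b of the NMDA receptor at 620 to 868 against 675 to 783 CPM. Of 26 potassium and HCN channels Hcn4 and Kcna5 were called higher, beside 1.10% of all genes. Kcna5, a delayed rectifier, was at 2.52, 2.05 and 1.24 CPM against 1.07, 1.07 and 0.895 CPM (log2 fold change 0.94, SE 0.34), and was not called without TG7.3.2 (0.70), TG7.3.4 (0.98), TG9.1.2 (0.98) or TG9.2.4 (0.86). Kcnq5, an M-current subunit, was lower with no overlap at 90.5, 87.1 and 111 CPM against 115, 128 and 129 CPM (-0.37, SE 0.10), just outside the fold limit.

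Chromatin regulators and several exercise-linked lists gave no calls. None was called among 24 histone acetyltransferases and deacetylases (median -0.01), 21 Polycomb and H3K27 demethylase genes (0.04), 22 genes of cholesterol synthesis and uptake (0.08), 30 of axon growth and guidance (-0.04) and 19 exercise-associated factors (0.03), which include Fndc5, the irisin precursor, at 108 to 150 CPM in ELE and 127 to 143 CPM in sedentary mice. Without TG9.1.4 Hmox1, encoding heme oxygenase 1, was called lower in the last list (-0.55), beside 1.75% of all genes. Among 17 glucocorticoid targets Cdkn1a, the cell cycle inhibitor p21, was the 1 call (1.10% of all genes were called higher), at 8.70, 20.6 and 7.21 CPM against 5.14, 4.45 and 6.79 CPM (log2 fold change 1.15, SE 0.38). It was 0.54 without TG9.1.4, missed the threshold without TG7.3.4 (1.11) or TG9.1.2 (1.03), was 0.75 on the right, and its groups did not overlap. Of 21 interferon-induced genes Irf7 and Oasl2 were called higher at no more than 2.21 CPM, beside the same 1.10%. Irf7 (1.58) was lost without TG7.3.2, TG9.1.4, TG7.3.4 or TG9.2.4, at 1.31 to 1.56, and Oasl2 (1.25) without TG7.3.2, TG7.3.4 or TG9.2.4, at 0.78 to 1.284. Of 16 neurogenesis genes 1 was called, Nes, at 2.09, 3.86 and 2.65 against 1.09, 2.36 and 1.04 CPM, beside the same 1.10%, and 11 had a negative log2 fold change. Nes (0.94) was lost without TG9.1.4, TG9.2.2, TG7.3.4 or TG9.2.4, at 0.67 to 0.995.

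Few regional and cell type markers were called. Among 15 dentate granule cell markers Pdzd2 and Npnt were called higher, both with overlap, beside 1.10% of all genes. Without TG9.1.4 neither was called, at 0.22 and 0.25, and without TG7.3.4, TG9.1.2 or TG9.2.4 they were lost at 0.43 to 0.93, Npnt also without TG7.3.2 (0.44). No CA1 marker of 12 nor CA2 and CA3 marker of 16 was called. Without TG9.1.4 Lypd1 of the CA1 list (0.55) and Coch of the CA2 and CA3 list (1.24) were called higher, beside 1.18% of all genes. The 14 oligodendrocyte lineage markers summed to 3261, 3503 and 3578 CPM in ELE and 3844, 3631 and 4185 CPM in sedentary mice, without overlap, and 11 of 14 had a negative log2 fold change (median -0.14, none called). Mbp was at 1428, 1642 and 1468 CPM against 1759, 1586 and 1800 CPM, which overlapped. Of 12 astrocyte markers 10 had a negative log2 fold change (median -0.09, none called), and their sum, which includes Gfap, was 6835 to 10100 CPM in ELE and 7419 to 9357 CPM in sedentary mice. The 12 microglia markers summed to 11.2 to 15.2 against 12.1 to 12.5 CPM, and the 11 excitatory neuron markers to 12220 to 13230 against 12240 to 14090 CPM. Among interneuron markers Erbb4 was called lower, beside 0.963% of all genes, at 3.88, 3.14 and 3.57 CPM against 4.65, 4.83 and 4.67 CPM (log2 fold change -0.42, SE 0.18). It was lost without any library but TG7.3.2, at -0.43 to -0.34. The choroid plexus markers had 14 of 14 negative log2 fold changes with none called, and sums of 1601, 83.6 and 158 CPM against 1589, 1926 and 119.5 CPM. No marker was called for endothelium and mural cells (51.6 to 66.2 against 56.1 to 59.8 CPM), red cells (2.34 to 8.59 against 4.23 to 5.09 CPM), striatum (158 to 313 against 166 to 193 CPM) or thalamus and habenula (44.1 to 64.6 against 38.5 to 46.7 CPM), and these sums overlapped between groups. Without TG9.1.4, Hba-a1 of the red cell list (0.82), Prkcd of the thalamus and habenula list (0.68), Fmod of the meningeal and fibroblast list (1.17) and Dsp of the dentate list (0.65) were called higher. In that fit 1.18% of all genes were called higher. The part of the oligodendrocyte difference in the lower genes was not tested.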

How the data were processed

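TRAP-seq was measured in 20 libraries of ribosome-bound RNA, of which the 12 separately isolated ones (6 left, 6 right hippocampus) were used. The authors deposited raw counts per gene. They checked reads with FastQC 0.11.9, aligned them with STAR 2.7.3a to GRCm38.p6 and counted read pairs over exons by strand; Picard 1.87, DESeq2 1.32.0 and R 4.1.0 are also named in the submitters' processing notes. Columns were tied to hemisphere and group through the study's mouse numbers. A further 32 count columns (24 of wild-type mice and 8 of the simultaneous isolation) were not used.

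Counts as deposited were fitted with edgeR 4.0.16 in R 4.3.3 (TMM factors, filterByExpr, quasi-likelihood F test) on the 6 left libraries, without covariates, and the interaction with hemisphere on 12. A gene was called when its p was below 0.05 before adjustment and it changed by more than 1.31-fold, the limits of the study's methods. The SE was derived from the log2 fold change and its F. CPM are counts scaled to the TMM-adjusted library size, and sums of a list add the CPM of its tested members. The fits were first tested on simulated data.

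Named were the 12 higher and 12 lower called protein-coding genes with the smallest p, a mean of at least 1 CPM in a group and no overlap between groups, all tested genes of the clock lists (1 gene is not reported here and was left out of them), and the called members and the 2 of highest level in the 40 gene lists. Other genes named were chosen after their values were seen, as were the genes that mark TG9.1.4. The members and lists were chosen with earlier results of these data known. Gene positions are gene bodies in the GRCm38.p6 annotation, and promoter windows are RefSeq sequences of that build. Each library is 1 mouse, so p-values measure the spread between these mice. Alternatives were DESeq2 1.42.0, size factors, no filter on low counts, a replicate block by mouse-number stem, all 12 libraries in the fit, and leaving out each library. Overlapping genes and near-identical copies share reads and are uncertain.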

Additional observations from a re-analysis of the deposited data

How the results depend on the processing

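Against 196 genes called higher and 171 lower, 292 and 260 were called with DESeq2, 409 and 282 with no filter on low counts, 353 and 346 with no limit on the fold change, and 0 and 0 with a Benjamini-Hochberg adjusted p. Leaving out 1 library gave 110 to 473 higher and 110 to 482 lower genes: higher 463 without TG7.3.2, 473 without TG9.2.2, 110 without TG7.3.4 and 127 without TG9.1.2, and lower 482 without TG7.3.2, 321 without TG9.1.4, 337 without TG9.2.2 and 110 without TG7.3.4. Of all lists, 27 genes were called, 43 with no filter, and 10 to 62 on leaving out 1 library. The interaction with hemisphere had 490 genes below 0.05 before adjustment, 1116 with no filter and 384 to 812 on leaving out 1 library, with the highest without TG9.2.2. After adjustment edgeR left 0, against 2 with DESeq2, 6 with no filter and 0 to 2 on leaving out 1 library, with 2 without TG9.2.4. The cause of these changes was not tested.

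Mouse numbers with the same first part were not taken to pair the samples, since their deviations correlated at 0.273, 0.0264 and 0.129 over 14169 genes, 1 of them under 0.1. TG9.1.4 correlated more with TG9.2.4 (0.0948), and each of the other 5 mice correlated most with the mouse of its own number. With them as a replicate block, 148 genes were called higher and 166 lower, of which 117 and 123 were also called without the block.

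No clock gene and no called named gene changed direction under the other fits. Among these genes, the log2 fold changes that crossed 0 on leaving out 1 library ran from -0.046 to 0.17 for Npas2, -0.33 to 0.018 for Rora, -0.24 to 0.032 for Rorb, -0.52 to 0.037 for Hlf, -0.25 to 0.080 for Per1, -0.33 to 0.52 for Bhlhe41, -0.43 to 0.11 for Per2, -0.082 to 0.041 for Cry2 and -0.29 to 5.93 for Npy. Of the 74 other named genes, none of them called, 1 (Slc17a7) had the other sign with DESeq2 and 23 had it without TG9.1.4, among them Gfap (0.41 and, without it, -0.17), Csf1r (0.16 and -0.90) and Fndc5 (-0.076 and 0.037). Their values under the other alternatives were not compared. DESeq2 did not call Per3, Fos, Egr3, Gadd45g, Pdzd2, Erbb4 or Eef1akmt4, gave no p for Krt75, Npy and Hspb1, and called Cry1. The replicate block lost Fos, Inhba, Npy, Pdyn, Erbb4 and Eef1akmt4, the fit of all 12 libraries lost Per3, Pdyn, Nes, Erbb4 and Eef1akmt4, and the fit with no filter lost Erbb4 and Eef1akmt4. With 3 mice a group, no gene passed adjustment, and levels far below 1 CPM rest on few counts. Running distance per mouse was not analysed here.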
